A study of Mus musculus with 6 samples.

Results

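The 10 genes described here encode the receptor chains for interferons and the Janus kinases bound to them: Ifnar1 and Ifnar2 (type I interferon receptor), Ifngr1 and Ifngr2 (interferon-gamma receptor), Ifnlr1 and Il10rb (type III interferon receptor), and the kinases Jak1, Jak2, Jak3 and Tyk2. They were chosen by symbol through their Ensembl gene IDs, and all 10 were among the 52856 rows of the count table. RNA-seq compared CD4+ T cells from the spleens of C57BL/6 mice aged 8 weeks that were wild type (WT, 3 libraries) or miPEP31-/- (KO, 3 libraries). All cells of both genotypes had been cultured with anti-CD3 and anti-CD28 for 48 hours, so no unstimulated group is part of the comparison. miPEP31 is a small peptide translated from the precursor transcript that also yields miR-31. The labels do not say how the allele was made or whether each library came from its own mouse, so p-values measure the spread between these libraries. Mir31, the row of that microRNA, had 0 counts in all 6 libraries, so it checks no genotype label.

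Interferons act through paired receptor chains that have no enzyme activity of their own. Each chain carries a Janus kinase on its cytoplasmic part: IFNAR1 binds TYK2 and IFNAR2 binds JAK1, IFNGR1 binds JAK1 and IFNGR2 binds JAK2, and the type III receptor pairs IFNLR1 with IL10RB, which carry JAK1 and TYK2. Ligand binding brings the chains together, the kinases phosphorylate each other and the receptor, and STAT proteins are recruited and sent to the nucleus. IL10RB is also the second chain of the interleukin-10 and interleukin-22 receptors. JAK3 is the exception among these kinases, since it serves the common gamma chain of the interleukin-2 receptor family and no interferon receptor, and it is characteristic of lymphocytes.

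The libraries held between 22865450 and 26295735 counts. KO replicates 1 and 3 differed most from each other, with a mean chi-square of 39.0 per gene against 14.5 to 16.2 for the other pairs of KO libraries and 4.97 to 8.21 for pairs of WT libraries. CPM stands for TMM-scaled CPM, that is, the count of a gene relative to the scaled total of its library. The T cell markers (Cd3e, Cd3d, Cd3g, Cd4, Trac, Cd5 and Lck) summed to between 1941 and 2050 CPM in WT and between 1886 and 1929 CPM in KO, and none of the 7 was at 0. Within that sum Cd3e, Cd3d, Cd3g, Cd4 and Trac were lower in KO, with log2 changes from -0.59 to -0.22, Lck did not pass, and Cd5 was higher, from 374 to 621 CPM. Macrophage and monocyte markers summed to 43.2 to 54.4 CPM in WT and 112 to 143 CPM in KO, with 3 of 10 at 0 (Adgre1, Fcgr1 and Marco), and Mpeg1 alone went from 1.25 to 42.8 CPM. Ctss and Cybb were also called higher, while Cd68 went from 5.47 to 3.91 CPM and did not pass. Csf1r, Lyz2 and Cd14 had too few counts to be tested. Dendritic cell markers summed to 22.7 to 28.3 CPM in WT and 111 to 128 CPM in KO, with 2 of 8 at 0 (Clec9a and Cd209a), and Batf3 alone went from 18.9 to 104 CPM. Zbtb46 was also called higher, Itgax and Flt3 did not pass, and Xcr1 and Siglech had too few counts to be tested. NK cell markers summed to 10.9 to 12.8 CPM in WT and 22.2 to 30.6 CPM in KO. Of these, Eomes went from 5.34 to 15.5 CPM and Klrk1 from 5.36 to 9.98 CPM, and both were called higher. Klrb1c (0.626 to 0.303 CPM) and Klre1 (0.573 to 0.368 CPM) did not pass, and Ncr1 and Klra8 had too few counts to be tested. CD8 T cell markers summed to 12.5 to 15.8 CPM in WT and 15.9 to 36.9 CPM in KO. Cd8a was 3.72-fold higher, while Cd8b1 went from 10.4 to 14.7 CPM with overlapping libraries and did not pass (edgeR adjusted p = 0.158). B cell markers summed to 63.9 to 92.9 CPM in WT and 62.8 to 125 CPM in KO, and 3 of the 6 (Cd79a, Cd79b and Ms4a1) were called higher. Neutrophil markers reached at most 1.48 CPM and erythroid markers at most 1.82 CPM in any library. The part of these other cells in the results below was not tested, and in bulk RNA fewer cells of a type and less RNA per cell cannot be told apart.

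Most of the receptor and kinase genes differed little between the genotypes, with Jak3 and Tyk2 as the exceptions. Of the 10, 9 had enough counts to be tested. Tyk2, Il10rb and Ifnar2 were higher in KO, Jak3 was lower, and 5 did not pass (edgeR quasi-likelihood test, Benjamini-Hochberg adjusted p under 0.05 over all 14387 rows tested). Over all rows tested 47.3% passed, 25.1% higher and 22.2% lower, so 4 of 9 is near the background. The median absolute log2 fold change was 0.15 for the 9 genes and 0.34 for all genes tested. The medians of the signed log2 changes were 0.13 and 0.01. The libraries of the 2 genotypes did not overlap for 5 of the 9 genes, 4 with KO above WT and 1 with KO below WT, against 30.6% and 28.4% of all rows tested. The plot of fold changes shows Jak3 and Tyk2 apart from the rest.

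**Figure D1:**
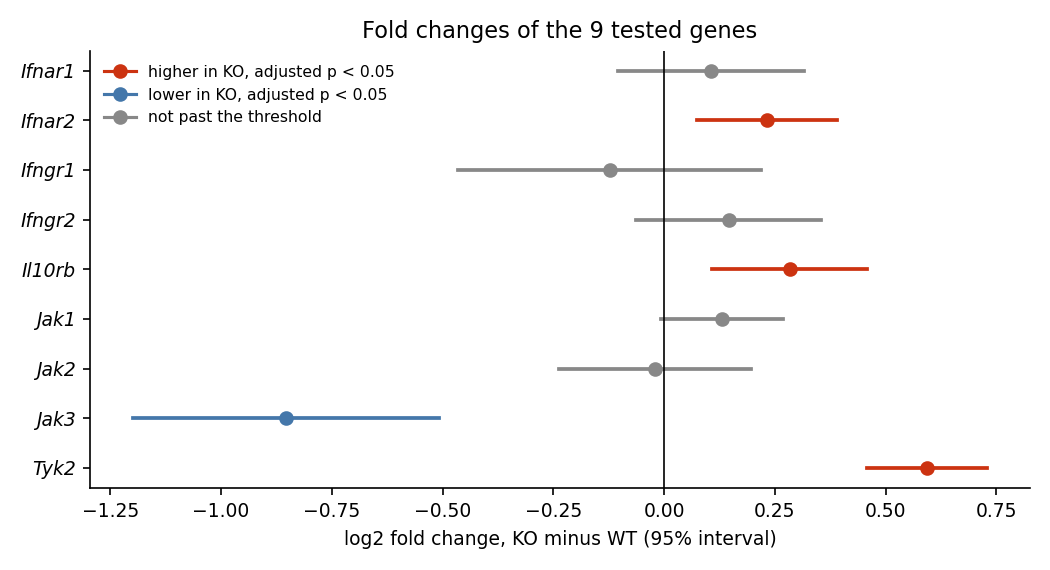
Log2 fold change, KO minus WT, for the 9 tested receptor and kinase genes, with 95% intervals from the edgeR fit (lines) and the estimate (points). Jak3 lies at -0.85 and Tyk2 at 0.59, and the other 7 lie between -0.12 and 0.28.

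Jak3, the kinase of the common gamma chain, was the member with the largest difference. Its level was 743, 740 and 708 CPM in WT replicates 1, 2 and 3 and 301, 431 and 481 CPM in KO replicates 1, 2 and 3. All 3 KO libraries lay below all 3 WT libraries, and KO replicate 1 was the lowest. Jak3 was 1.81-fold lower in KO, or -0.85 in log2 units (with SE 0.15, adjusted p = 0.00246 by edgeR), and 18.8% of all genes tested had a larger absolute change. In log2 units the change was -0.68 when KO replicate 1 was left out and -1.01 when KO replicate 3 was left out, and Jak3 passed the test in both cases. Jak3 (ENSMUSG00000031805) lies on chromosome 8 from 71676296 to 71690575 (GRCm38, plus strand). Insl3, which encodes an insulin-like peptide, overlaps it on the same strand and stood at 9.48 CPM in WT and 5.28 CPM in KO. How reads of the overlapping stretch were divided is not known, and Insl3 held 1050 counts over all libraries against 80679 for Jak3.

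Tyk2, the kinase of IFNAR1 and IL10RB, rose. It stood at 68.4, 69.9 and 68.6 CPM in WT and at 101, 101 and 109 CPM in KO. The replicates of each genotype were close together and the genotypes did not overlap. Tyk2 was 1.51-fold higher in KO (log2 change 0.59 with SE 0.06, adjusted p = 1.63e-04 by edgeR), and 29.8% of all genes tested had a larger absolute change. Tyk2 passed the test under all 15 alternative settings, with log2 changes from 0.54 to 0.64. Tyk2 (ENSMUSG00000032175) lies on chromosome 9 from 21104068 to 21131243 (GRCm38, minus strand).

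Jak1 and Jak2, the kinases of the interferon-gamma receptor, did not pass the test. Jak1, which serves all 3 types of interferon receptor, had 293, 289 and 279 CPM in WT and 311, 300 and 330 CPM in KO. Every KO library was above every WT library, but the fold of 1.10 had a 95% interval from 0.996 to 1.20 (edgeR adjusted p = 0.104). With plain library sizes in place of TMM scaling Jak1 passed (log2 fold change 0.18, edgeR adjusted p = 0.0383). Jak2 had 452, 532 and 545 CPM in WT and 558, 471 and 478 CPM in KO. The genotypes overlapped, with WT replicate 1 the lowest library and KO replicate 1 the highest. The fold of Jak2 was 0.986 with a 95% interval from 0.848 to 1.15 (edgeR adjusted p = 0.875), and 96.4% of all genes tested had a larger absolute change.

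**Figure D2:**
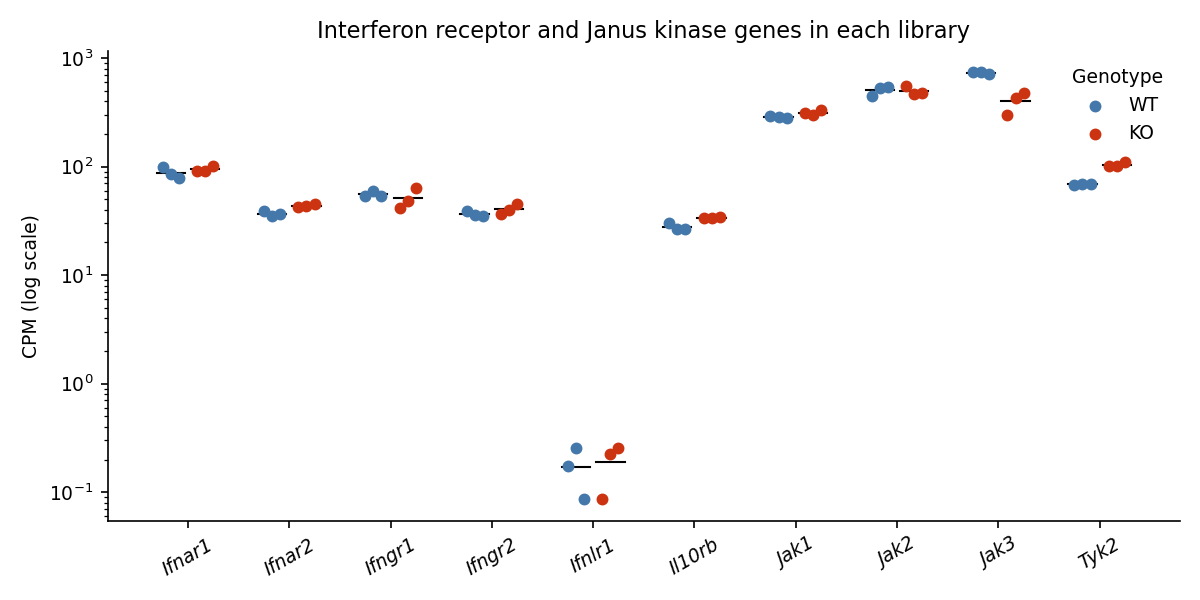
TMM-scaled CPM (log axis) of each receptor and kinase gene in each of the 3 WT (blue) and 3 KO (red) libraries, with group means as black lines. Jak3 lies between 708 and 743 CPM in WT and between 301 and 481 CPM in KO, while Ifnlr1 lies at or under 0.258 CPM in all libraries.

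Because JAK3 serves no interferon receptor, the make-up of the kinase transcripts was compared within each library, using counts per kilobase of annotated exon. Jak3 made up 49.7%, 47.0% and 45.7% of the summed level of the 4 kinases in WT and 25.0%, 34.9% and 36.4% in KO. The Jak3 share was lower in every KO library than in every WT library, by 15.4 percentage points between the means. Tyk2 made up 3.49% ± 0.0624 in WT and 6.48% ± 0.0794 in KO (SD, n = 3 each). Jak1 went from 13.8% ± 0.632 to 18.6% ± 0.555, and Jak2 from 35.2% ± 2.72 to 42.8% ± 5.70 (SD, n = 3 each). These 4 shares sum to the whole, so a lower Jak3 share raises the others. Each share gave p = 0.1 in a two-sided exact permutation test, the smallest that 3 against 3 libraries allow, and 0.14 after adjustment over the 7 shares and ratios compared. The total itself was 279, 294 and 289 CPM per kilobase in WT and 225, 231 and 247 CPM per kilobase in KO, so the KO libraries were below the WT libraries.

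**Figure D3:**
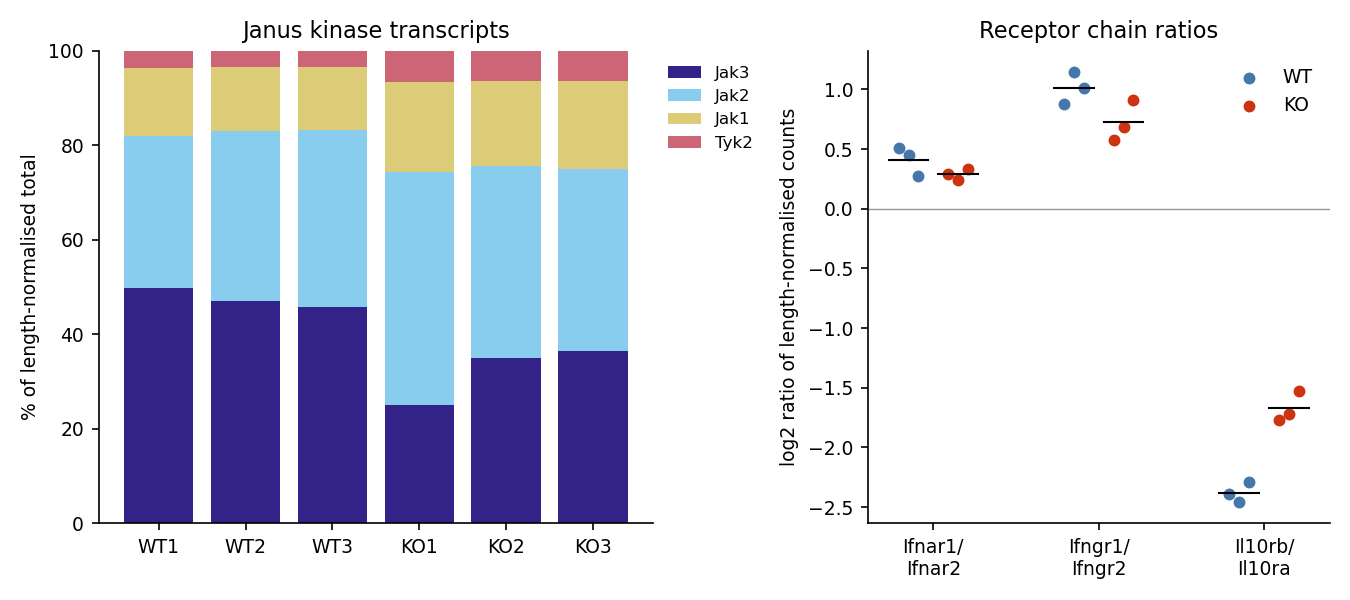
Left, share (%) of each Janus kinase in the length-normalised total of the 4 kinases, one bar per library. Right, log2 ratio of length-normalised counts of paired receptor chains in each WT (blue) and KO (red) library, with group means as black lines. Jak3 falls from 45.7% to 49.7% in WT to 25.0% to 36.4% in KO, and only the Il10rb to Il10ra ratio separates the genotypes among the 3 ratios.

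The promoters of Jak3, Ifnar2 and Tyk2 are shown because these called genes differ in direction, and their letters show which of them hold the short motifs read by interferon-activated factors. RefSeq promoter windows on GRCm38.p6 (250 bases before to 50 after the start) were at hand for 9 of the 10 members, Il10rb being the other. Each line gives the first 160 bases of the window, 5′ to 3′ on the gene's own strand, with matches to 2 short motifs in capitals. They lie at chr8:71676133-71676292 on the plus strand (Jak3), chr16:91372533-91372692 on the plus strand (Ifnar2) and chr9:21131366-21131525 on the minus strand (Tyk2).
Jak3: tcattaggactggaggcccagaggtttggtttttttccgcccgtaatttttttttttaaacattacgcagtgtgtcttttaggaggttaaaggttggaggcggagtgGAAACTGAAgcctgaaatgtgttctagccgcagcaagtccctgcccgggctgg
Ifnar2: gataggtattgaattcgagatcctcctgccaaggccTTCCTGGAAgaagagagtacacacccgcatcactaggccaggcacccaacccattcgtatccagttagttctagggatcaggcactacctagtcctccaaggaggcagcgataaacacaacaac
Tyk2: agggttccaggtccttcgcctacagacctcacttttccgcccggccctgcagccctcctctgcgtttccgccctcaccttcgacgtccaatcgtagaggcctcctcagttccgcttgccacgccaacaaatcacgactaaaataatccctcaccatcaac

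The capitals in Jak3, from 143 to 135 bases before the start, match GAAANNGAA, the core of the interferon-stimulated response element, which was searched on both strands (TTCNNTTTC on the other). Jak3, the member that fell, was the only 1 of the 9 windows with that motif, which 8.56% of all 32851 promoter windows held. The capitals in Ifnar2 match TTCNNNGAA, the core of the gamma-activated site bound by STAT proteins, which reads the same on both strands. Ifnar2 and Ifnar1 held it, as did 8.30% of all windows. The Ifnar1 match, TTCACGGAA, runs from 5 bases before the start base to 3 bases after it, and is not among the first 250 bases of the window. Tyk2, which rose, matched neither motif anywhere in its window. A match is a string of letters in this window and was not tested as a binding site.

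Among the receptor genes the differences were small. Il10rb, the chain shared by the receptors for type III interferon, interleukin-10 and interleukin-22, had 30.3, 26.8 and 26.6 CPM in WT and 33.8, 33.8 and 34.3 CPM in KO. All KO libraries lay above all WT libraries, and Il10rb was 1.22-fold higher (log2 change 0.28 with SE 0.08, adjusted p = 0.0161 by edgeR). Ifnar2, the signalling chain of the type I receptor, had 39.0, 35.1 and 36.5 CPM in WT and 42.1, 43.1 and 44.8 CPM in KO. It too was higher in every KO library, by 1.18-fold (log2 change 0.23 with SE 0.07, adjusted p = 0.0237 by edgeR). Both calls were lost when some single libraries were left out, while the log2 changes stayed between 0.25 and 0.34 for Il10rb and between 0.19 and 0.27 for Ifnar2. Il10rb lost its call without WT replicate 2, WT replicate 3 or KO replicate 2 (edgeR adjusted p from 0.0574 to 0.0745), and Ifnar2 without any of these 3 or KO replicate 3 (edgeR adjusted p from 0.0608 to 0.107) and when no low-count filter was used (edgeR adjusted p = 0.0635). In the 3 cases that cost both calls, 34.8% to 36.7% of all rows tested passed, in place of 47.3%.

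Ifnar1, the partner of IFNAR2 that carries TYK2, had 98.9, 85.7 and 78.8 CPM in WT and 92.1, 90.9 and 101 CPM in KO. WT replicate 1 lay within the KO range. The fold of 1.08 had a 95% interval from 0.931 to 1.25 (edgeR adjusted p = 0.366), which includes the 1.18-fold of Ifnar2. The length-normalised ratio of Ifnar1 to Ifnar2 was 1.33 in WT and 1.22 in KO (geometric means), with overlapping libraries (two-sided exact permutation p = 0.3, n = 3 each).

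The interferon-gamma receptor chains did not pass the test either. Ifngr1, the ligand-binding chain, had 53.7, 60.0 and 53.3 CPM in WT and 41.3, 48.0 and 64.2 CPM in KO. The KO libraries lay on both sides of the WT libraries, with KO replicate 1 the lowest and KO replicate 3 the highest of all 6. The fold was 0.918 with a 95% interval from 0.725 to 1.16 (edgeR adjusted p = 0.529), and without KO replicate 3 Ifngr1 passed as lower (log2 fold change -0.33, edgeR adjusted p = 0.0155). Ifngr2, the chain that carries JAK2, had 38.8, 35.9 and 35.0 CPM in WT and 36.7, 39.6 and 45.1 CPM in KO, a fold of 1.11 with a 95% interval from 0.958 to 1.28 (edgeR adjusted p = 0.218). Here too KO replicate 3 was the highest library. The length-normalised ratio of Ifngr1 to Ifngr2 was 2.01 in WT and 1.65 in KO (two-sided exact permutation p = 0.2, n = 3 each).

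Ifnlr1, the chain specific to type III interferon, was near the detection limit. It had 4, 6 and 2 counts in the WT libraries and 2, 6 and 6 counts in the KO libraries, too few for the filter. The 14 KO and 12 WT counts gave a ratio of 1.11 with an exact 95% interval from 0.476 to 2.63, which covers counting error only. A difference within that interval was not detectable at this depth. The second chain, Il10rb, was present in all 6 libraries as given above. Il10ra, the ligand-binding partner of IL10RB for interleukin-10, fell by 0.42 on the log2 scale (SE 0.09, edgeR adjusted p = 0.00635). The length-normalised ratio of Il10rb to Il10ra went from 0.192 in WT to 0.314 in KO, with no overlap between genotypes (two-sided exact permutation p = 0.1, the smallest possible, n = 3 each, 0.14 after adjustment over 7 values).

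Per kilobase of annotated exon, the level of the kinases stood above that of the receptor chains except for Tyk2. In WT the order of levels was Jak3 (136 ± 3.65 CPM per kilobase), Jak2 (101 ± 9.99), Jak1 (39.7 ± 1.03), Ifngr1 (19.6 ± 1.31), Ifnar1 (14.8 ± 1.71), Ifnar2 (11.1 ± 0.580), Tyk2 (10.0 ± 0.116), Ifngr2 (9.70 ± 0.528), Il10rb (7.33 ± 0.543) and Ifnlr1 (0.0410 ± 0.0199, SD, n = 3 each). Only Tyk2 and Ifngr2 were neighbours in that order whose libraries overlapped. In KO the order began with Jak2 at 99.9 ± 9.61 CPM per kilobase, followed by Jak3 at 75.6 ± 17.3 and Jak1 at 43.5 ± 2.11 (SD, n = 3 each). Tyk2, at 15.2 ± 0.683 CPM per kilobase, stood above Ifnar2 at 13.0 ± 0.419 in KO, and its libraries overlapped those of Ifnar1 (SD, n = 3 each). Jak3 was among the top 2.03% and Jak2 among the top 2.93% of tested genes by WT level, while Tyk2 was exceeded by 33.5% and Il10rb by 41.4%. With the longest transcript as the length, Jak2 and Jak3 overlapped in KO, and Tyk2 stood above Ifnar2 in both genotypes.

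Ifnar2, Il10rb, Ifnar1 and Ifngr2 lie side by side on chromosome 16 on the plus strand, within 193 kb from 91372783 to 91565623 (GRCm38). The 5 annotated coding genes of that stretch are these 4 and Gm21970, which overlaps Ifnar2 and Il10rb and had 2 counts over all libraries. The 4 receptor genes had log2 fold changes between 0.11 and 0.28, and only the first pair passed the test. Downstream, Tmem50b, a membrane protein gene, had a log2 fold change of 0.15 (edgeR adjusted p = 0.231) and Dnajc28, a gene of the DnaJ chaperone family, -0.04 (edgeR adjusted p = 0.901). Upstream, Paxbp1 had -0.14 (edgeR adjusted p = 0.472), while 4932438H23Rik fell by 1.69 (SE 0.30, edgeR adjusted p = 0.00255). The map of the cluster shows the 4 receptor genes at similar small values, with 4932438H23Rik far below them. The other members lie elsewhere: Ifngr1 on chromosome 10 (19591949 to 19610229), Ifnlr1 on chromosome 4 (135686287 to 135708181), Jak1 on chromosome 4 (101152367 to 101265282) and Jak2 on chromosome 19 (29251828 to 29313080).

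**Figure D4:**
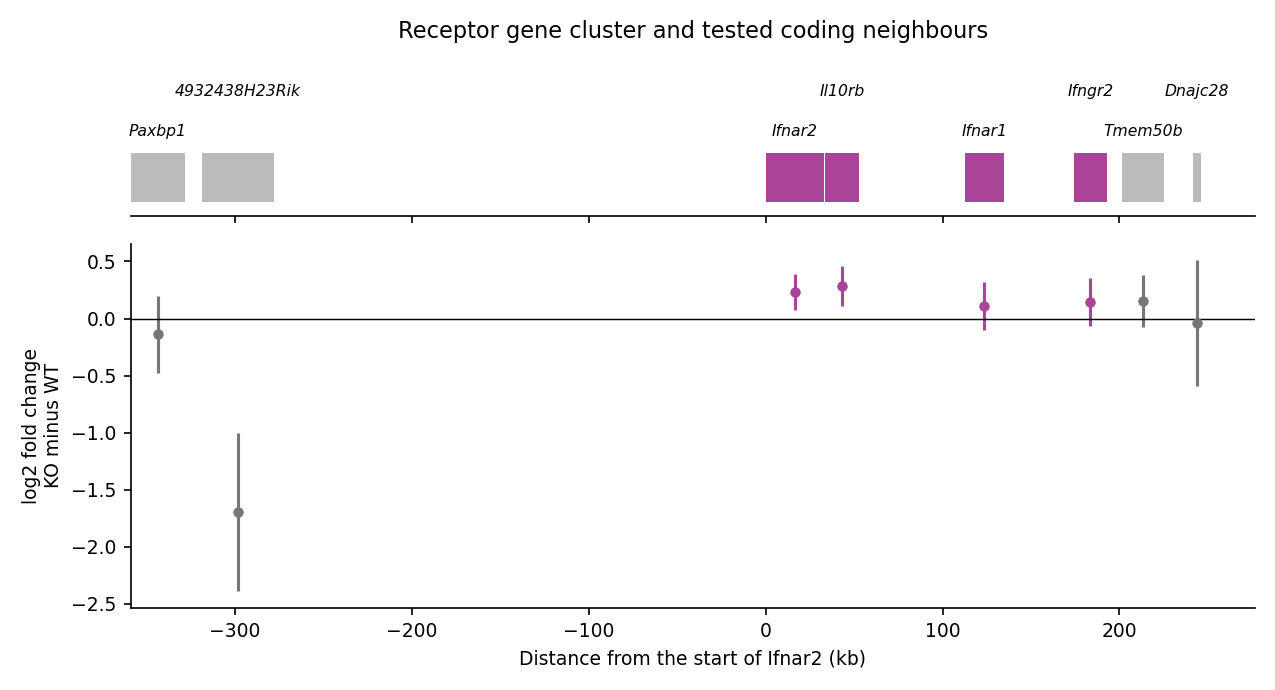
Top, positions of the 4 receptor genes (purple) and the tested coding genes on either side (grey), as distance in kb from the start of Ifnar2. Bottom, log2 fold change of each, KO minus WT, with its 95% interval. The 4 receptor genes lie between 0.11 and 0.28, and 4932438H23Rik lies at -1.69.

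Of 23 ligand genes in the table, 5 had enough counts to be tested, 4 of which were higher and 0 lower, against 25.1% and 22.2% of all rows tested. Ifnl2 and Ifna2 passed the low-count filter through their KO counts alone and so could only be called higher. The count of 4 of 5 is therefore not comparable with those shares. The remaining called genes were the interleukins Il10 and Il22. Ifnl2, a type III interferon, had 0, 0 and 2 counts in WT and 141, 95 and 21 in KO, a ratio of 122 with an exact 95% counting interval from 33.5 to 1015 (edgeR adjusted p = 0.00165). The fitted log2 change of Ifnl2 was 6.69, and 6.05 when KO replicate 1 was left out. Both WT counts came from WT replicate 3, so no fold is given with that library left out. Ifna2, a type I interferon, had no WT count and 117, 38 and 13 counts in KO, at least 53.3-fold higher when the WT group is set to a floor of 3 counts over its libraries (adjusted p = 0.00891 by edgeR, but 0.168 with no low-count filter). Ifnb1, the interferon-beta gene, had 1 WT count and 52, 26 and 9 KO counts and was not tested. For all 3, KO replicate 1 was the highest and KO replicate 3 the lowest of the KO libraries. Type I and type III interferon genes have close paralogs, so reads can be split between them and their levels are uncertain.

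The interleukins that use IL10RB moved in the other order of libraries. Il10 had 7.06, 15.1 and 12.1 CPM in WT and 28.8, 56.9 and 87.8 CPM in KO (log2 change 2.34 with SE 0.41, adjusted p = 0.00248 by edgeR). Il22 had 2.12, 2.62 and 2.48 CPM in WT and 9.14, 17.8 and 42.8 CPM in KO (log2 change 3.27 with SE 0.54, adjusted p = 0.00189 by edgeR), and the change was 2.47 when KO replicate 3 was left out. For both, KO replicate 3 was the highest library. Ifng, the only ligand of IFNGR1 and IFNGR2, had 61.0, 105 and 62.8 CPM in WT and 168, 91.6 and 38.9 CPM in KO and did not pass (edgeR adjusted p = 0.516). KO replicate 1 lay above and KO replicate 3 below all WT libraries. The count of ligand genes that were higher was 7 without any 1 of the WT libraries or without KO replicate 3. Of all rows tested, 34.8% to 36.7% passed in either direction without a WT library and 49.0% without KO replicate 3. The count was 8 with no low-count filter (26.2% of all rows passed) and 2 when a row needed 1 CPM in 3 libraries (50.6%). Ligand genes with 0 or 1 WT counts enter through their KO counts alone. They could hardly be called lower, so these counts do not measure direction.

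Downstream of the kinases, named transcription factor genes went in opposite directions. Irf9 and Stat2, whose products act together after type I and type III interferon, rose by 2.06 (SE 0.07) and 1.87 (SE 0.07) on the log2 scale. Irf9 stood at 26.26, 24.50 and 25.68 CPM in WT and at 105, 103 and 112 CPM in KO. Every KO library was above every WT library. Stat5b, 1 of 2 closely related transcription factors of interleukin-2 signalling through JAK1 and JAK3, fell by 0.55 on the log2 scale (SE 0.06). The other, Stat5a, had means of 490.2 CPM in WT and 494 CPM in KO (edgeR adjusted p = 0.937). The libraries of Stat5b lay between 466 and 500 CPM in WT and between 312 and 341 CPM in KO. The changes of Irf9 and Stat2 exceeded in size those of the 9 tested interferon receptor and Janus kinase genes.

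**Figure D5:**
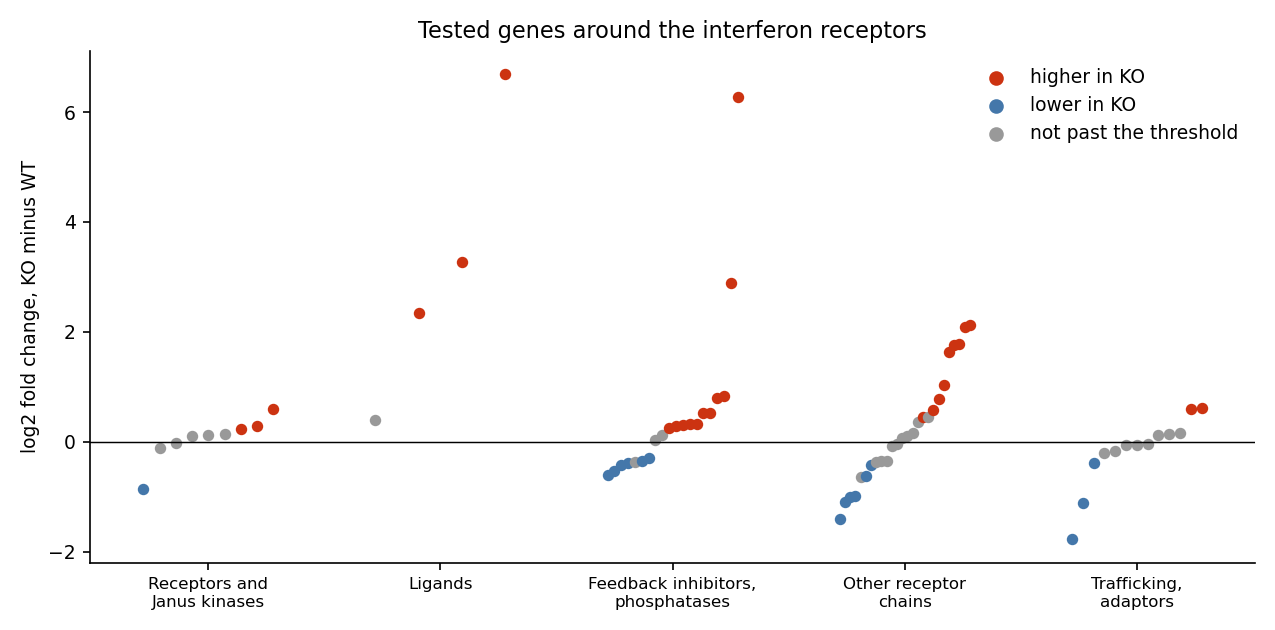
Log2 fold change, KO minus WT, of the tested receptor and kinase genes and of the tested genes of 4 related lists, 1 point per gene, coloured by whether it passed the edgeR test (red higher, blue lower, grey neither). The receptors and kinases lie between -0.85 and 0.59, whereas Isg15 reaches 6.28 among the feedback genes and Ifnl2 6.69 among the ligands; Ifna2, with no WT count, is not drawn.

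Feedback and phosphatase genes of cytokine receptor signalling changed in both directions. Of 20 feedback and phosphatase genes, all tested, 11 rose, 6 fell and 3 did not pass, against 25.1% higher and 22.2% lower of all rows tested, with a median log2 fold change of 0.27. Usp18, which binds IFNAR2 and dampens type I signalling, rose from 24.4, 28.1 and 25.0 CPM in WT to 269, 181 and 127 CPM in KO (log2 change 2.89 with SE 0.25, adjusted p = 8.95e-05 by edgeR). Its partner Isg15, an interferon-induced ubiquitin-like protein, rose by 6.28 on the log2 scale (SE 0.27). In both genes KO replicate 1 was the highest. The phosphatase genes Ptpn1, whose product acts on JAK2 and TYK2, and Ptpn6 fell by 0.54 (SE 0.05) and 0.60 (SE 0.06) on the log2 scale. Sorted by class after their values were seen, the genes that fell included 4 phosphatase genes (Ptpn1, Ptpn2, Ptpn6 and Ptprc), with log2 changes from -0.60 to -0.36, whereas the phosphatase gene Ptpn11 rose by 0.32 (SE 0.10, edgeR adjusted p = 0.0268). The genes that rose included Socs1, Socs2, Socs4, Socs6, Socs7 and Cish of the SOCS family, with log2 changes from 0.25 to 0.84, while Socs3 at -0.37 and Socs5 at 0.04 did not pass.

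The other receptor chains that rely on Janus kinases moved in both directions. Of 34, 26 were tested, of which 9 rose, 6 fell and 11 did not pass, against 25.1% higher and 22.2% lower of all rows tested, with a median log2 fold change of 0.08. Osmr, Il23r and Csf2rb2, among those that rose, met the low-count filter only because of their KO counts. They could hardly have been called lower, so the count of 9 is not comparable with the share of all rows. Il2rg, the common gamma chain that JAK3 binds, had 267, 266 and 275 CPM in WT and 416, 395 and 387 CPM in KO. Every KO library was above every WT library, the opposite direction to Jak3, with or 0.57 in log2 units (with SE 0.06, adjusted p = 1.55e-04 by edgeR). Il2rb, which pairs with it in the interleukin-2 receptor and was added after its values were seen, had 1387, 1466 and 1391 CPM in WT and 879, 1112 and 1347 CPM in KO and did not pass (edgeR adjusted p = 0.0649). Il6ra and Il27ra, chains of the interleukin-6 and interleukin-27 receptors, fell by 1.40 (SE 0.14) and 0.62 (SE 0.07), and Il13ra1, a chain that binds interleukin-13, rose by 2.12 (SE 0.27) from a low level of 0.674 CPM in WT.

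Among 13 adaptor and trafficking genes of cytokine receptors, 2 rose, 3 fell and 8 did not pass, against 47.3% of all rows tested that passed in either direction, with a median log2 fold change of -0.06. Without KO replicate 3, 5 fell, against 49.0% of all rows tested that passed in either direction in that setting. Cblb, a ubiquitin ligase that restrains T cell activation, fell from 391, 341 and 323 CPM to 107, 102 and 98.2 CPM (log2 change -1.78 with SE 0.08, adjusted p = 6.15e-06 by edgeR). Ubash3a, a phosphatase family member that dampens T cell receptor signals, fell by 1.11 (SE 0.07). Stam2 and Hgs, which sort ubiquitinated receptors at endosomes, rose by 0.62 (SE 0.07) and 0.60 (SE 0.07) on the log2 scale.

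For the 3 called members with the largest change, the most similar profiles were sought among 12665 tested genes with a mean of at least 1 CPM, by the root mean square difference of centred log2 CPM over the 6 libraries. Nearest to Jak3 were Ptprv (0.0301), Map3k1 (0.0517), a kinase gene of the MAP kinase cascade, and Rtn4rl1 (0.0544). Map3k1 stood at 177, 180 and 164 CPM in WT and 70.1, 93.3 and 110 CPM in KO, with KO replicate 1 lowest as for Jak3. Nearest to Tyk2 were Yif1a (0.0254), Limd1 (0.0270) and Cep120 (0.0288), with log2 fold changes between 0.56 and 0.58. Nearest to Il10rb were Tmem123 (0.0301), Nf1 (0.0307) and Ehhadh (0.0322). Their log2 changes lay between 0.27 and 0.29.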

How the data were processed

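RNA-seq libraries, 3 WT and 3 KO, were made with Trizol and a TruSeq kit per the labels' protocols. The submitters' processing notes list Bowtie 0.12.2 and mm8 with no role. For the counting program, annotation and strand setting, nothing is stated in the sources used here. The deposited values are estimated counts (52856 rows, 51912 with Ensembl IDs and 944 with MSTRG IDs; 72.2% of values above 0 are whole), rounded before testing. IDs were matched to GENCODE M21 (GRCm38), which gave symbols for 51719, positions and exon lengths; these positions are of that annotation and not of the authors' build. A further deposited table of 30 genes, none a member, was not used here.

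Rows passing filterByExpr (minimum count 10) were tested with edgeR 4.0.16 (R 4.3.3), TMM scaling and Benjamini-Hochberg adjustment at 0.05. The SE is the unshrunk log2 change over the square root of F, and 95% intervals use the fit's total degrees of freedom. The test was also run on simulated counts with far fewer changed genes than were called here. That run does not check the error rate for these data. Counting intervals cover counting error only. With 2 groups of 3 libraries, single values had exact permutation tests, adjusted over 7. Alternatives were other scalings, filters, DESeq2 1.42.0, limma-voom 3.58.1, unrounded counts, a replicate block, each library left out, and other lengths.

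Members and lists were chosen with earlier results of these data known. Named were all 10 members; up to 4 called genes a list by smallest p, plus Ifnb1, Ifng and Il10; the chromosome 16 coding genes with the nearest 2 tested on either side; and the 3 closest profiles, on log2 of CPM plus 0.5, of each of 3 members, where rows with no symbol were passed over, which the rule did not state. Batf3, Mpeg1 and the other marker genes named singly, Insl3, Il2rb, Stat5a and the SOCS and phosphatase genes beyond the rule were added after their values were seen. Motifs were sought on both strands. Counts over the list of STAT factors are not reported here.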

Additional observations from a re-analysis of the deposited data

How the results depend on the processing

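The 7 ratios and shares kept their direction under all alternatives run, and no scaling moved the median log2 change by over 0.1. Of the log2 changes of named genes, 615 values were on the same side of the threshold and of the same sign, 14 lost and 3 gained the call, and 11 reversed. With single libraries left out, 1 to 3 members were higher, 1 to 2 were lower, and 5142 to 7233 genes were called (34.8% to 49.0% of rows tested). The log2 change ranged in this way from -0.33 to 0.0063 for Ifngr1, -0.10 to 0.027 for Jak2, -0.22 to 0.75 for Ifng, -0.30 to 0.021 for Paxbp1 and -0.15 to 0.036 for Dnajc28. Of these, Ifngr1 passed the test at -0.33, without KO replicate 3. Plain library sizes gave 0.024 for Jak2 and 0.0044 for Dnajc28. The cause was not tested. Same-numbered libraries did not deviate together (correlations -0.0087, 0.068 and -0.045). A replicate block called 5736 genes (39.9% of rows tested), with 2 members higher and 1 lower, and Ifnar2 had an edgeR adjusted p of 0.0665. It cannot change the mean difference of a ratio or share. In the first 250 bases of the promoter windows alone, the matches of Jak3 and Ifnar2 stood and that of Ifnar1 did not, and 7.13% of all windows held the interferon-stimulated core and 7.02% the gamma-activated core. Depth limits Ifnlr1, at 26 counts in all.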
